A study of Homo sapiens with 4 samples.

Results

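K120R-only peaks were the genomic regions at which a ChIP-seq peak of K120R p53 was called in Tet-treated cells and shared no base with any peak of WT p53 from Tet-treated cells. They were selected on the peak calls themselves, and the rule took 873 of the 2023 K120R peaks of Tet-treated cells (43.2%, exact Clopper-Pearson 95% interval 41.0 to 45.3%), or 873 of the 6849 peaks called over all libraries. The other 1150 K120R peaks overlapped a WT peak (shared K120R peaks), and 3234 of the 4326 WT peaks overlapped no K120R peak (WT-only peaks). The cells were H1299, a lung cancer line that makes no p53 of its own, with a Tet repressor and a lentiviral vector from which Tet switches on either WT p53 or K120R p53, a form with arginine in place of Lys120. Both groups used here received Tet for 24 h, at a dose that the sample labels give as 1 µg/µl and the study's methods as 1 µg/ml, and chromatin was precipitated with an antibody to p53. The matching cells without Tet served only as a check. Each condition was 1 library with its own input, with 34857204 ChIP tags for K120R p53 and 33531162 for WT p53, so no difference was tested. Intervals are exact Clopper-Pearson 95% intervals over peaks. They cover counting error only, and peaks of 1 library are not replicates. Genomic positions are 1-based on GRCh37, and genes and transcription start sites (TSSs) are those of GENCODE release 44.

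The tumour suppressor p53 is a transcription factor that binds DNA as a tetramer at response elements (REs) built from a pair of decameric half-sites. The centre of each half-site is a short core, most often CATG, which each protein subunit contacts from the major groove, and Lys120 lies in the loop that reaches the bases next to this core. Lys120 is also a site of acetylation in cells under stress, and its exchange for arginine occurs in human tumours.

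The library had peaks at the established p53 targets CDKN1A and MDM2. At CDKN1A, which encodes the cell cycle inhibitor p21, the strongest peak had a fold enrichment of 34.4 with K120R p53 in Tet-treated cells, and at MDM2, the ubiquitin ligase that limits p53, it had 27.4. Without Tet, no K120R peak was called at either gene, whereas WT p53 had peaks at both, with fold enrichments of 40.2 at CDKN1A and 13.9 at MDM2. Fold enrichment is the ratio of fragment pileup at the summit to the local background, as the authors' peak caller gave it. The caller used a fragment length of 68 bp for K120R p53 and of 170 bp for WT p53, so fold enrichments and lengths were not compared between the lists. The part that this difference has in the choice of the K120R-only peaks was not tested.

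Sequences of some of the strongest K120R-only peaks are shown first, because they differ in repeats, alternating runs and CATG content. The windows below reach 75 bp to either side of the summit and are printed 5′ to 3′ on the forward strand of GRCh37. They belong to 4 of the 6 K120R-only peaks with the largest fold enrichment. CATG is in capitals, except in the window upstream of FBRSL1, which has no CATG and in which capitals mark the 20 bp with the fewest mismatches to the consensus RE.
intron of HACL1, chr3:15634312-15634462, + strand: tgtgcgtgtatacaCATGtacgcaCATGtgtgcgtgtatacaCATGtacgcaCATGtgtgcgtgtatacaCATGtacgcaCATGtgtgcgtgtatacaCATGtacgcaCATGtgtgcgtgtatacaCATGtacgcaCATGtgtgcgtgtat
upstream of FBRSL1, chr12:133060039-133060189, + strand: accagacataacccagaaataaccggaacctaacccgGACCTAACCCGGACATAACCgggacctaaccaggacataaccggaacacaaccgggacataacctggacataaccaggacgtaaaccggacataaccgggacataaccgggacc
intron of EEFSEC, chr3:127896822-127896972, + strand: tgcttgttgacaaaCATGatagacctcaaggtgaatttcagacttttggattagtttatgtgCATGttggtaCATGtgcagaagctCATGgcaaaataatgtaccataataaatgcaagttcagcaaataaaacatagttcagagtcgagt
exon of COL6A4P2, chr3:129969936-129970086, + strand: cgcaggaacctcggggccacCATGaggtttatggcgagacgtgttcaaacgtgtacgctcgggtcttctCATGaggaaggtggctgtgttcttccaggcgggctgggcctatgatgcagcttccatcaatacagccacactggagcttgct

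At HACL1, which encodes a peroxisomal lyase of fatty acid oxidation, every base of the window continued a single tract in which purines and pyrimidines alternate. The window repeated itself at a shift of 28 bp with 100% identity and held 10 CATG. The window upstream of FBRSL1 was another kind of repeat, with a shift of 33 bp at 81.4% identity, an alternating run of only 5 bp and 0 CATG. The windows in EEFSEC, which encodes the elongation factor for selenocysteine, and in the collagen pseudogene COL6A4P2 had no alternating run longer than 11 bp, and they held 4 and 2 CATG. Of these 4 windows, only that in COL6A4P2 came within 3 mismatches of the consensus RE.

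A further window was chosen for its gene. TNFAIP8, a regulator of cell death, had a K120R-only peak close to a TSS, and CATG is again in capitals.
intron of TNFAIP8, chr5:118605108-118605258, + strand: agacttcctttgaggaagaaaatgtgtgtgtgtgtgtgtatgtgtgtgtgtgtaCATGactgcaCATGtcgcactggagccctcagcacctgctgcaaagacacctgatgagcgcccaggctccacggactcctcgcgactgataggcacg

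In TNFAIP8, an alternating run of 37 bp ended in a CATG, and another CATG started 10 bp farther on.

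K120R-only peaks with a near-complete RE were few. Within 75 bp of the summit, 0 of 873 held a 20-bp RE without mismatch, with an interval that reached 0.422%, against 5.30% of shared and 5.29% of WT-only peaks. With at most 1 mismatch, 11 K120R-only peaks held one (1.26%, 0.631 to 2.24%), against 20.9% of shared and 17.2% of WT-only peaks. Below are the 6 such REs with the largest fold enrichment, with the 4 bp at the core of each half-site in capitals.
intron of ENSG00000251567, chr4:137062540-137062559, + strand: gtgCATGttcaaaCAAGtcc
upstream of GOLGA6D, chr15:75566837-75566856, + strand: agaGTTGtctgagCATGtcc
upstream of TMED7-TICAM2, chr5:115001931-115001950, + strand: ggaCAAGtacaaaCAAGtcc
upstream of LINC01315, chr22:42766808-42766827, + strand: gaaCATGcttgaaCATGcta
intron of GAREM1, chr18:29888612-29888631, + strand: gaaCATGtttgcaCAAGttt
intron of POF1B, chrX:84565132-84565151, + strand: aaaCAAGatcagaCATGttc

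These peaks had fold enrichments from 9.79 (ENSG00000251567) to 6.57 (POF1B), and none of the windows had an alternating run of more than 9 bp. The centre of the RE lay between 5.5 and 55.5 bp from the summit. All 6 lay in introns or outside genes, and the nearest coding TSS was that of GOLGA6D at 8286 bp.

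The peaks of the class were mostly weak and short, which is a description, since the calls chose them. Their median fold enrichment was 6.18 (quartiles 5.25 and 7.47), and the median -log10 q was 5.77. Among K120R peaks ranked by fold enrichment, 4 of the first 50 and 28 of the first 200 were K120R-only, against 542 of the lower 1012. A fold enrichment of at least 10 was reached by 74 K120R-only peaks (8.48%, 6.71 to 10.5%) and by 290 shared peaks (25.2%, 22.7 to 27.8%). Of the K120R-only peaks, 237 were at most 100 bp long, and the shortest measured 68 bp, the fragment length that the caller estimated, which is below the 75 bp of a single tag. The longest measured 687 bp, at HACL1.

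Below the first 6 in fold enrichment came a peak 2621 bp upstream of INPP5A, which encodes an inositol phosphatase (chr10:134348428-134348930, fold enrichment 16.4). Next were introns of TFEB, which encodes a transcription factor of lysosomal genes (chr6:41681709-41682120, 16.1), and of the ubiquitin ligase gene NEDD4 (chr15:56221192-56221592, 15.5). The other 3 of the 12 strongest were in an intron of ENSG00000287400 (chr1:41788906-41789228, 15), in intergenic sequence 26318 bp downstream of a TSS of DISP3 (chr1:11619901-11620260, 15) and near the start of chromosome 2 (chr2:765341-765761, 13.9). The peak at TFEB held 9 CATG and an alternating run of 90 bp, and that on chromosome 2 held 9 CATG and a run of 44 bp. The peak near DISP3 lay only 298 bp from a WT peak. For each of the other 11, the nearest WT peak was at least 24308 bp away, which was the distance at NEDD4.

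Most K120R-only summits lay inside genes. Of the 873, 635 were in an annotated gene body (72.7%, 69.7 to 75.7%), whereas gene bodies cover 62.1% of the assembled genome. Shared K120R summits were in gene bodies at 65.3% (62.5 to 68.1%) and WT-only summits at 65.9% (64.2 to 67.5%), so the interval of the K120R-only peaks lay above both. Introns held 539 K120R-only summits (61.7%, 58.4 to 65.0%), intergenic sequence 238 (27.3%, 24.3 to 30.3%), exons of non-coding transcripts 47 (5.38%), untranslated regions 37 (4.24%) and coding exons 12 (1.37%). In percentage points, the largest departure from the other classes was in intergenic sequence. It held 34.7% of shared (31.9 to 37.5%) and 34.1% of WT-only summits (32.5 to 35.8%). Relative to its size, the share in exons of non-coding transcripts departed more. These exons held 3.39% of shared (2.42 to 4.61%) and 3.03% of WT-only summits (2.47 to 3.68%). The interval of the K120R-only share (3.98 to 7.10%) overlapped that of shared summits and lay above that of WT-only summits. The 635 summits fell in 657 annotated genes, counting overlapping genes, and 470 of these were protein-coding.

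**Figure D1:**
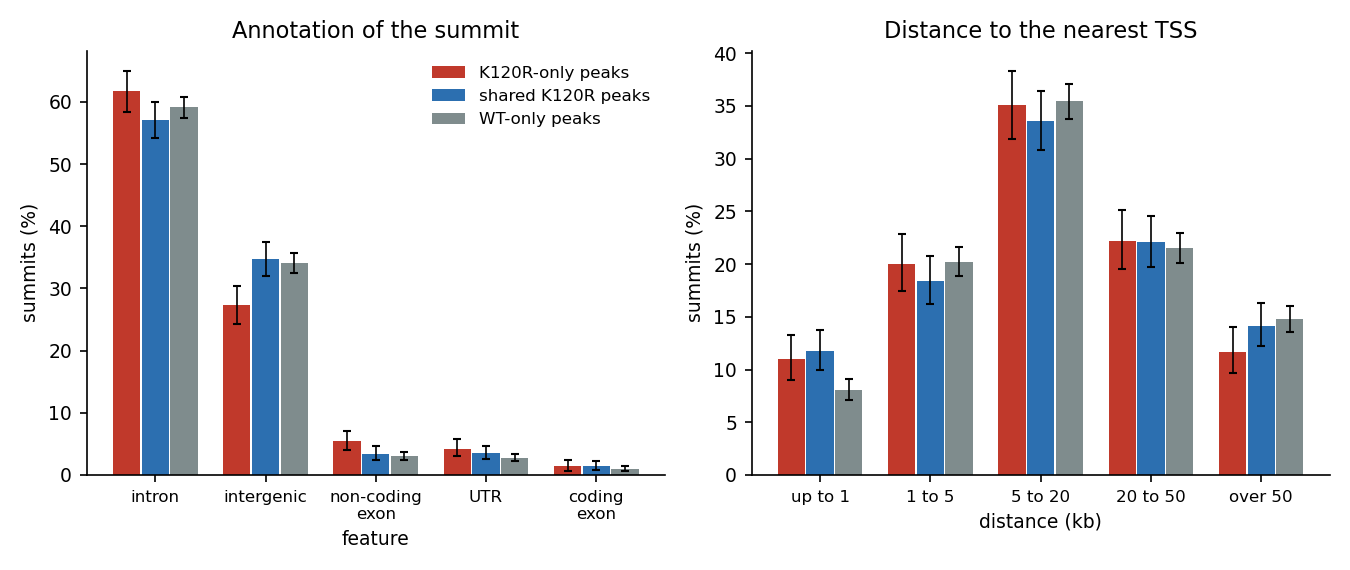
Annotation of the summit (left) and distance to the nearest TSS in kb (right), each as the percentage of summits, for 873 K120R-only, 1150 shared K120R and 3234 WT-only peaks. Bars with exact 95% intervals show fewer intergenic summits among K120R-only peaks (27.3%) and similar TSS distances in all 3 classes beyond 1 kb.

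The distance to the nearest TSS differed little between the classes. Its median was 11192 bp for K120R-only summits (95% interval of the median 10041 to 12537 bp), 12500 bp for shared summits (11262 to 14196 bp) and 12457.5 bp for WT-only summits (11734 to 13324 bp). Within 1 kb of a TSS were 96 K120R-only summits (11.0%, 9 to 13.3%), against 11.7% of shared (9.93 to 13.7%) and 8.07% of WT-only summits (7.15 to 9.06%). The genome share within 1 kb of a TSS was 4.79%. Of the 96, 54 lay downstream of the TSS and 58 were within 1 kb of the TSS of a protein-coding gene. The windows of TSS-proximal peaks differed from the rest in base composition. At least 8 CpG were present in 45 of the 96 (46.9%, 36.6 to 57.3%), against 95 of the 777 peaks farther away (12.2%, 10.0 to 14.7%). Of the 96, 4 reached a fold enrichment of 10 (4.17%, 1.15 to 10.3%), an interval that includes the 8.48% of all K120R-only peaks.

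Those 4 were the strongest peaks near the TSS of a coding gene. The first lay 103 bp upstream of TMEM204, within an intron of IFT140, a gene of ciliary transport (chr16:1578314-1578738, fold enrichment 13.4). TNFAIP8 followed, with its summit 796 bp downstream of the TSS (chr5:118604874-118605432, 12.5). The next were 453 bp downstream of the TSS of SNCG, which encodes gamma-synuclein (chr10:88718640-88719144, 12.1), and 763 bp downstream of the TSS of CLDN19, a claudin of tight junctions (chr1:43204831-43205234, 11.7). Weaker peaks lay 933 bp upstream of PMVK, a kinase gene of the mevalonate pathway (9.75), 792 bp upstream of SYNJ2, a phosphoinositide phosphatase gene (9.25), 668 bp upstream of PRPF6, a splicing factor gene (8.74), and 551 bp upstream of a TSS of SEMA3B, a semaphorin gene (7.69). SEMA3B had another K120R-only peak 751 bp downstream of a TSS (fold enrichment 7.35), with 237 bp between the summits.

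For K120R-only peaks, the shares of listed p53-pathway genes could not be told apart from that of all protein-coding genes. A gene was counted when a summit lay in its body, or when its TSS was the nearest one within 100 kb, among all or among protein-coding genes. By this rule 744 of 20136 protein-coding genes (3.69%) had a K120R-only summit, 4.65% had a shared K120R summit and 12.4% had a WT-only summit. Of 105 genes listed as p53 targets, 6 had a K120R-only summit (5.71%, 2.13 to 12%). This interval includes the share of all protein-coding genes. The target list also holds non-coding genes, such as NEAT1 and PVT1, which that share leaves out. By contrast, 38 of the 105 had a shared summit (36.2%, 27.0 to 46.1%) and 50 a WT-only summit (47.6%, 37.8 to 57.6%). Among 41 regulators and cofactors of p53 there were 3 genes with a K120R-only summit (7.32%, 1.54 to 19.9%), and this interval includes 3.69% as well. The TNFAIP8 family, listed because TNFAIP8 has been described as induced by a p53 mutant at a DNA contact, had 1 of 4. Apoptosis genes had 4 of 47, cell cycle genes 3 of 53 and DNA repair genes 2 of 66, and the intervals of all 3 lists include 3.69%.

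At TNFAIP8, K120R p53 had 2 peaks in Tet-treated cells. The K120R-only peak near the TSS had a -log10 q of 27.5. The other (chr5:118659359-118659600, fold enrichment 10.6) overlapped a WT peak with a fold enrichment of 15.9 in its own list. Neither library of untreated cells had a peak within 5 kb of the gene. Among regulators of p53, an intron of the tumour suppressor gene WWOX carried a peak of 10.5-fold enrichment and an RE with 2 mismatches (chr16:78354048-78354545). EHMT2, which encodes a histone H3K9 methyltransferase, had one of 8.37 (chr6:31856707-31857036), and HIPK2, a kinase that phosphorylates p53, one of 7.59 with an RE of 3 mismatches (chr7:139463406-139463639).

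Of the 6 p53 targets with a K120R-only summit, 5 are named here. They include GPC1, a glypican gene (17062 bp downstream of its TSS, fold enrichment 9.28), the stress-response gene SESN1 (5.64) and the non-coding RNA gene NEAT1 (5.85). SESN1 and NEAT1 also had a shared K120R peak that was stronger, with fold enrichments of 14.2 and 11.0. The K120R-only peak in NEAT1 lay 1070 bp from the WT peak. TNFRSF10A, a death receptor gene, carried an intronic peak of 10.8-fold enrichment, and the non-coding RNA gene PVT1 had 2 intronic peaks, the stronger with a fold enrichment of 8.74.

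The sequence at the summits set the K120R-only peaks apart from both other classes, and the rule made no use of sequence. Within 75 bp of the summit, 282 K120R-only peaks held a match to the consensus RE with at most 3 mismatches (32.3%, 29.2 to 35.5%), against 66.8% of shared (64.0 to 69.5%) and 76.5% of WT-only peaks (75 to 78%). Windows of the same length 3000 bp to either side of the K120R-only summits held one in 3.15% of cases. With at most 2 mismatches the shares were 10.3% (8.37 to 12.5%), 46.2% (43.3 to 49.1%) and 49.5% (47.8 to 51.3%), so the size of the contrast depended on the mismatches allowed. An exact half-site was present in 114 windows (13.1%, 10.9 to 15.5%), against 41.3% of shared peaks and 3.21% of flanking windows. Words around CATG, read on both strands, divided the classes further. The 6-bp word TGCATG, with its reverse complement CATGCA, was found in 47.5% of K120R-only windows (44.2 to 50.9%), 19.8% of shared (17.6 to 22.2%) and 20.1% of WT-only windows (18.7 to 21.5%), and in 7.04% of flanks. By contrast, the palindrome ACATGT was about as frequent in K120R-only windows (36.2%, 33 to 39.5%) as in shared windows (40.7%, 37.8 to 43.6%), and more frequent than in WT-only windows (22.9%, 21.4 to 24.4%), with 3.49% in flanks. The 8-bp word ACATGCAC was in 33.2% of K120R-only, 6.61% of shared and 3.15% of WT-only windows. It contains CATGCA, so their shares are not independent, and it was taken over from earlier results of the same data.

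**Figure D2:**
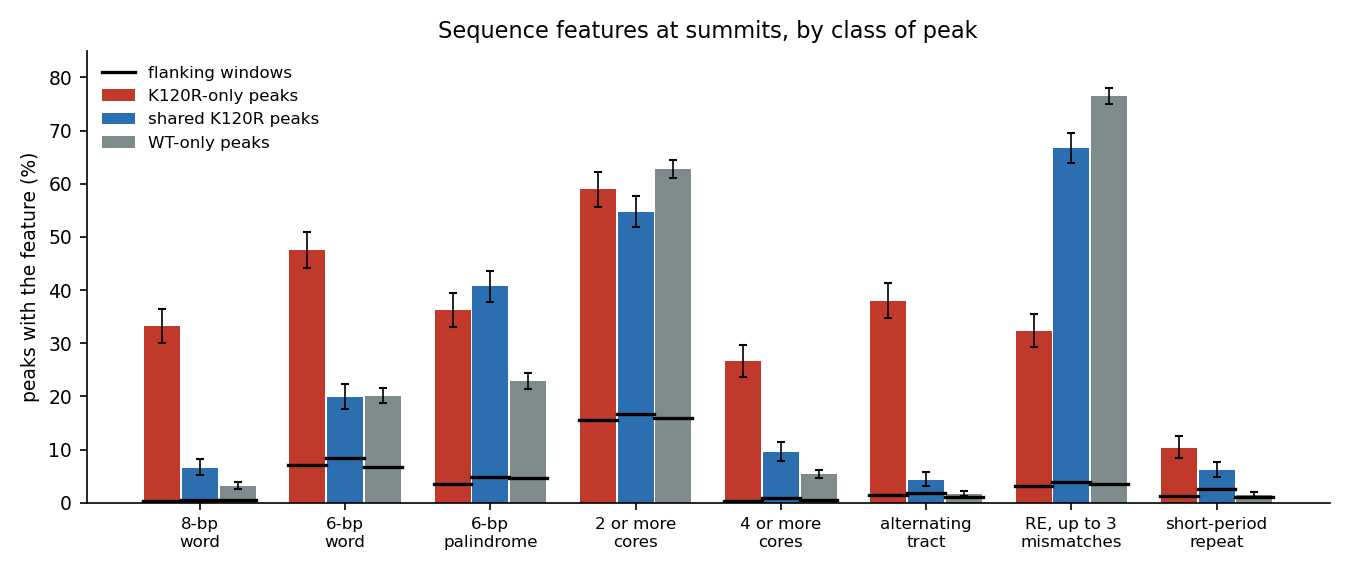
Percentage of K120R-only, shared K120R and WT-only peaks with each sequence feature, with exact 95% intervals. Cores are CATG, the 6-bp word is TGCATG or CATGCA, the 6-bp palindrome is ACATGT and the 8-bp word is ACATGCAC. Tracts are alternating runs of at least 20 bp that overlap the called peak, and the short black lines give the share in windows 3000 bp away. Those windows have a fixed length, whereas called peaks vary in length. REs with up to 3 mismatches were at 32.3% of K120R-only and 66.8% of shared peaks, whereas alternating tracts were at 38.0% and 4.35%.

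Runs of at least 20 bp in which purines and pyrimidines alternate lay within 75 bp of 291 K120R-only summits (33.3%, 30.2 to 36.6%), against 1.03% of the flanking windows. The longest run of such a window had a median length of 33 bp. A median of 81.0% of its pyrimidine-to-purine steps were CA or TG, and 9.80% were CG. CATG lay inside the run in 250 of the 291 (85.9%, 81.4 to 89.7%), and at least 2 CATG in 177 (60.8%, 55.0 to 66.5%). In the flanks of all 3 classes, 107 windows had such a run, with the same median length of 33 bp. Only 57 of them had a CATG anywhere in the window (53.3%, 43.4 to 63.0%) and 25 had at least 2 (23.4%, 15.7 to 32.5%). Alternating runs at K120R-only peaks thus carried CATG more often than runs in flanking sequence, and the intervals did not overlap. The 36 runs at shared peaks were nearer, with CATG in 66.7% (49 to 81.4%) and at least 2 CATG in 52.8% (35.5 to 69.6%), and both intervals overlapped those of the K120R-only peaks, the former only at its edge. The 24 runs at WT-only peaks had CATG in 41.7% (22.1 to 63.4%) and at least 2 in 8.33% (1.03 to 27%). A counterexample, named after its values were seen, was an intergenic peak on chromosome 5 (chr5:100422945-100423081, fold enrichment 13.7), where the whole window alternated and held 0 CATG.

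Few K120R-only peaks held both a run and an RE. An RE without a run was found in 216 K120R-only peaks (24.7%), a run without an RE in 225 (25.8%), both in 66 (7.56%) and neither in 366 (41.9%). Since an RE was in 32.3% and a run in 33.3% of K120R-only peaks, few would hold both even if these features were unrelated. Shared K120R peaks, by contrast, had an RE without a run in 64.3% and a run without an RE in 0.609%. Both were in 2.52% of shared peaks, so 29 of their 36 windows with a run also had an RE. Among K120R-only peaks, the median fold enrichment of those with a run was 6.71 without an RE (6.25 to 6.97) and 7.09 with one (6.56 to 7.99), against 6.10 with an RE alone (5.91 to 6.48) and 5.92 with neither (5.71 to 6.11). The intervals of a run alone and an RE alone overlapped. Of the 162 peaks with a fold enrichment under 5, 25.9% had a run (19.4 to 33.4%), and of the 74 over 10, 55.4% had one (43.4 to 67.0%). The share with an RE showed no such rise, at 26.5% (19.9 to 34.0%) and 33.8% (23.2 to 45.7%) in the same bins. Of the 366 peaks with neither, 121 also lacked CATG, and the median length of the 366 was 127 bp.

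**Figure D3:**
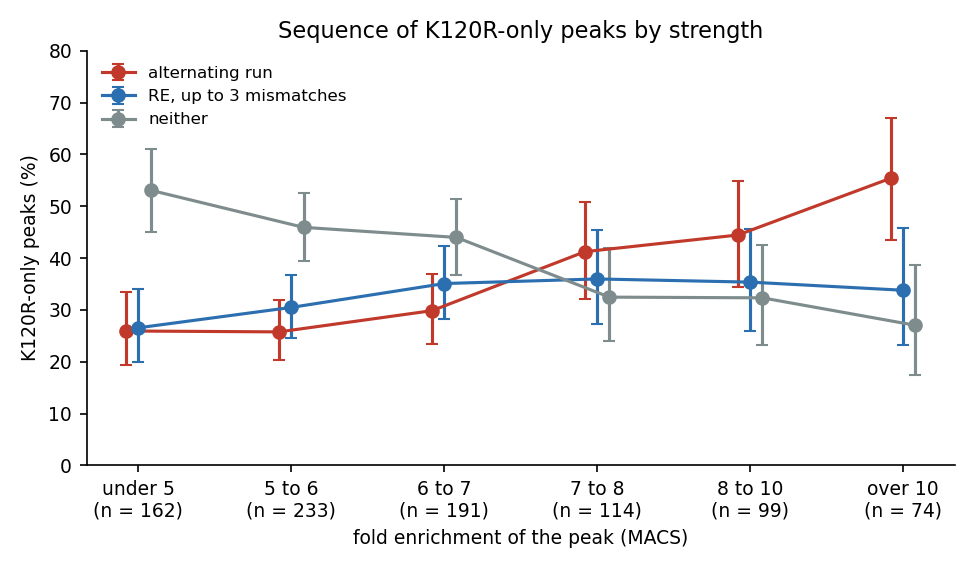
Percentage of K120R-only peaks with an alternating run of at least 20 bp, an RE with up to 3 mismatches, or neither, in 6 bins of fold enrichment, with exact 95% intervals and the number of peaks per bin. The share with a run went from 25.9% under 5 to 55.4% over 10, and the share with neither went from 53.1% to 27.0%.

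CATG was frequent in all classes but arranged differently. At least 2 CATG were present in 59.0% of K120R-only windows (55.6 to 62.3%), 54.7% of shared windows (51.8 to 57.6%), 62.8% of WT-only windows (61.1 to 64.5%) and 15.6% of flanks, whereas at least 4 were present in 26.6% of K120R-only windows (23.7 to 29.6%), 9.57% of shared (7.93 to 11.4%) and 5.32% of WT-only windows (4.57 to 6.15%). Starts of neighbouring CATG were 10 bp apart, as in an RE with adjoining half-sites, in 37.8% of pairs at shared peaks (34.9 to 40.7%) and 18.6% at K120R-only peaks (16.7 to 20.6%). A spacing of 4 bp, in which one CATG directly follows the other, made up 7.32% of pairs at K120R-only peaks (6.08 to 8.73%) and 1.79% at shared peaks (1.09 to 2.74%). For 6 bp the values were 8.98% (7.61 to 10.5%) and 2.41% (1.59 to 3.49%). Pairs within 1 window are not independent, so these intervals are too narrow.

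**Figure D4:**
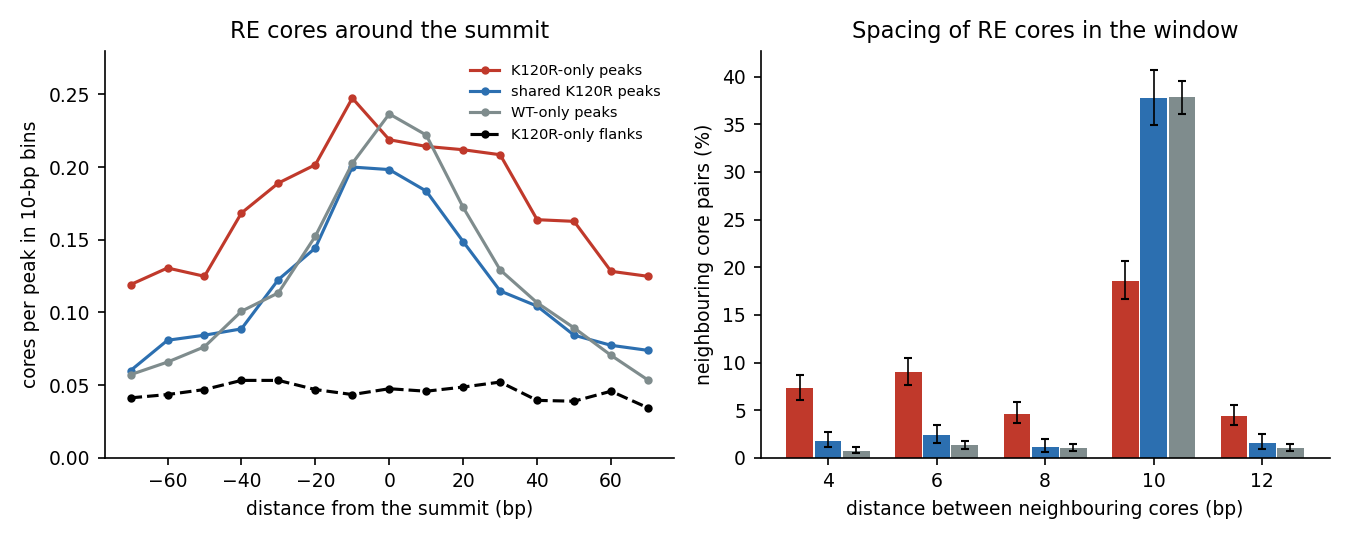
Left, number of CATG cores per peak in bins of 10 bp against the distance from the summit in bp, for the 3 classes and for windows 3000 bp from K120R-only summits. Right, percentage of neighbouring core pairs with starts 4 to 12 bp apart, with exact 95% intervals. Cores were spread more widely around K120R-only summits, and their pairs were 10 bp apart in 18.6% of cases against 37.8% in both other classes.

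Where K120R-only peaks did hold an RE, its base content was close to that of shared REs over all windows, but not outside alternating runs. At the bps next to the cores, positions 3 and 8 of the RE for one half-site and 13 and 18 for the other, the number of G/C bps was 0 or 1 in 186 of 282 K120R-only REs (66.0%, 60.1 to 71.5%), in 63.7% of shared REs (60.2 to 67.1%) and in 26.3% of WT-only REs (24.5 to 28%). Outside alternating runs, the share was 76.4% of 216 K120R-only REs (70.2 to 81.9%) and 64.4% of 739 shared REs (60.8 to 67.9%), and the intervals did not overlap. Of the 216, only 12 had 3 or 4 G/C bps (5.56%). The 66 REs in windows with a run had 0 or 1 G/C bp in 31.8% of cases (20.9 to 44.4%). The 55 matches in the flanks had 0 or 1 in 27.3% (16.1 to 41.0%). Among K120R-only REs, low G/C content was thus found mainly outside runs. The other classes had the same direction, with overlapping intervals. With a run, 44.8% of 29 shared REs had 0 or 1 G/C bp (26.4 to 64.3%). For WT-only REs the share was 14.3% of 21 with a run (3.05 to 36.3%) and 26.4% without (24.6 to 28.2%). K120R-only REs outside runs lay a median of 24.5 bp from the summit, against 18.5 bp for shared REs outside runs.

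K120R-only peaks were found on every chromosome, at 0.305 per Mb of assembled sequence. Chromosomes 19 (0.609 per Mb, 0.424 to 0.845), 20 (0.605, 0.426 to 0.831) and 17 (0.604, 0.447 to 0.796) had the highest densities, and their intervals overlapped. Chromosome 19 also had the highest density of shared (0.699 per Mb) and of WT-only peaks (1.86). Chromosome 20 was below the genome density for shared peaks (0.336 against 0.402). The lowest densities of K120R-only peaks were on chromosome 13 (0.0732, 0.0295 to 0.150) and chromosome X (0.139, 0.0864 to 0.211). Both chromosomes were also below the genome density for shared (0.293 and 0.291) and WT-only peaks (0.795 and 0.543 against 1.13). The largest number, 73, was on chromosome 2. K120R-only peaks made up 43.2% of K120R peaks in the genome, and the interval of a chromosome did not include this value for chromosomes 16 (36 of 63, 57.1%, 44 to 69.5%), 20 (36 of 56, 64.3%, 50.4 to 76.6%), 21 (19 of 28, 67.9%, 47.6 to 84.1%) and 13 (7 of 35, 20.0%, 8.44 to 36.9%). On chromosome 20, 9 of the 36 were in a single group, 20503 bp from an assembly gap at its nearest. The intervals were not adjusted for the number of chromosomes compared, and that of chromosome 16 lay only just above the genome value.

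**Figure D5:**
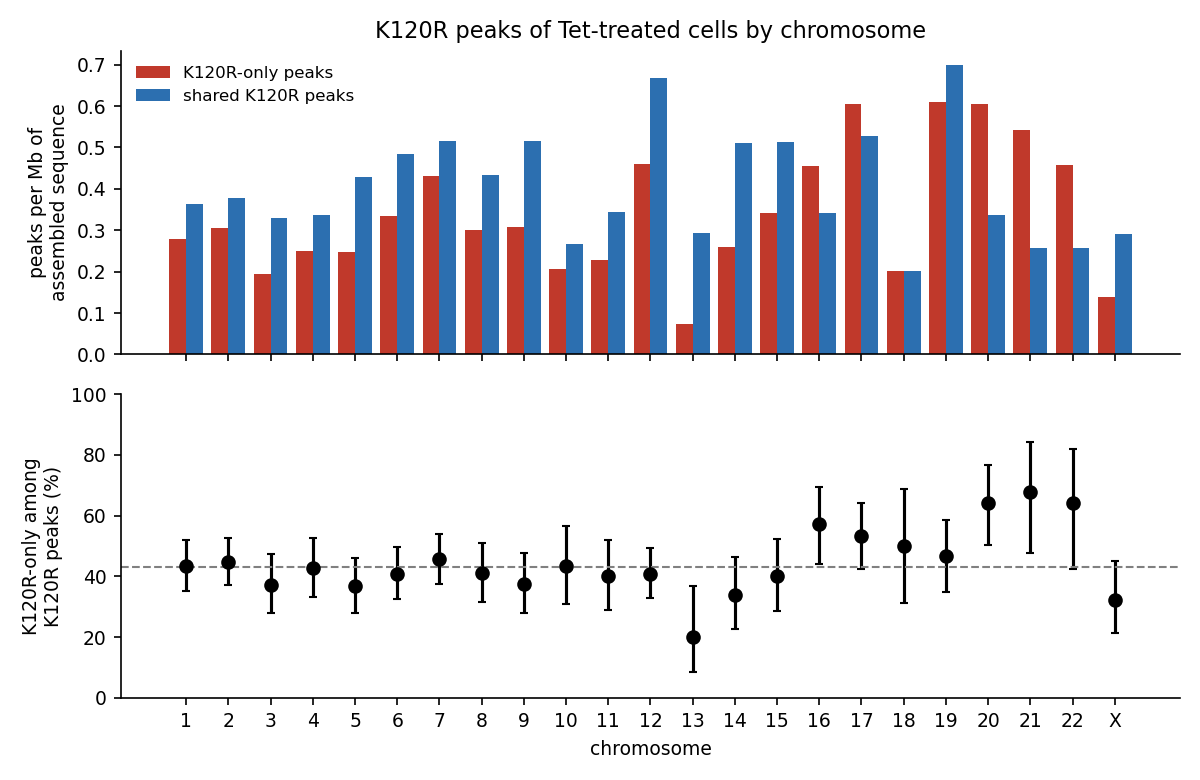
Upper panel, K120R-only and shared K120R peaks per Mb of assembled sequence for chromosomes 1 to 22 and X. Lower panel, percentage of the K120R peaks of each chromosome that were K120R-only, with exact 95% intervals, and the genome-wide 43.2% as a dashed line. The intervals of chromosomes 16, 20 and 21 lie above the line and that of chromosome 13 lies below it.

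The ends of chromosomes were more densely occupied. Within 5 Mb of an end lay 169 K120R-only summits (19.4%, 16.8 to 22.1%), against 9.30% of shared (7.69 to 11.1%) and 7.92% of WT-only summits (7.01 to 8.90%), while this zone is 7.11% of the assembled genome. Within 2 Mb the values were 11.6% (9.52 to 13.9%), 4.78% (3.62 to 6.18%) and 3.96% (3.31 to 4.69%), for 2.76% of the genome. Alternating runs accompanied this position. Of the 169 peaks, 89 had a run (52.7%, 44.9 to 60.4%), compared with 202 of the 704 peaks farther inside (28.7%, 25.4 to 32.2%). Of peaks with a run and no RE, 32% were near an end (26 to 38.5%), against 25.8% with both (15.8 to 38.0%), 13.4% with an RE alone (9.18 to 18.7%) and 13.9% with neither (10.6 to 17.9%). A fold enrichment of at least 10 was reached by 16.0% of peaks near an end (10.8 to 22.4%) and by 6.68% elsewhere (4.95 to 8.78%). Assembly gaps of at least 100 kb had 77 K120R-only summits within 1 Mb (8.82%, 7.02 to 10.9%), similar to shared (8.87%) and WT-only summits (8.26%), and above the 4.12% of the genome in that zone. Of these 77, 54 had neither a run nor an RE.

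Neighbours of K120R-only peaks were counted within their own class. Another K120R-only summit lay within 1 kb of 72 peaks (8.25%, 6.51 to 10.3%), within 10 kb of 100 (11.5%) and within 100 kb of 195 (22.3%, 19.6 to 25.2%). Shared K120R peaks had a neighbour of their own class at 1 kb in 8.78% (7.21 to 10.6%) and at 100 kb in 23.8% (21.4 to 26.4%). For WT-only peaks the values were 1.18% (0.833 to 1.61%) and 29.1% (27.5 to 30.7%). These shares depend on the number of peaks in a class, so the classes were not ranked by them. The part that the fragment length used in calling has in these shares was not tested. With the 154 K120R-only peaks of a -log10 q of at least 10, the share at 100 kb was 5.84%. Joined at 100 kb, the 873 peaks formed 678 singles, 68 pairs and 15 groups of 3 or more with 59 peaks. The tightest group spanned 388 bp between its outer summits in an intron of ERICH1 (chr8:649908-650610) and had 3 peaks with fold enrichments of 7.04 to 9.79, 0 CATG and self-matches of 86.5 to 94.8%. The next had 3 peaks within 975 bp in ZNF594-DT (chr17:5143412-5144452), each with at least 2 CATG and none with a run or an RE. Another was in ASPSCR1 (chr17:79949335-79964235), with 3 peaks over 14759 bp and fold enrichments from 6.18 to 13.

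By gene, 75 genes had at least 2 K120R-only summits in their body and 12 had at least 3. The pseudogene FRG1BP had 6, at most 5.15-fold enriched, with no run, and they belonged to the group of 9 peaks beside the gap on chromosome 20 (chr20:29583407-29633439). Next were the overlapping genes MLYCD, which encodes malonyl-CoA decarboxylase, with 5 and OSGIN1, a growth inhibitor gene induced by oxidative stress, with 4. Their 5 distinct peaks (chr16:83950847-83984794) had fold enrichments of 4.68 to 6.94, and 4 of them carried a run and between 2 and 10 CATG. SDHAP4 also had 4.

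The rule cut through a narrow margin for few peaks. The K120R-only peaks nearest to a WT peak were in PLEKHA8 (chr7:30068041-30068108), with 1 bp between the peaks and fold enrichments of 5.43 with K120R p53 and 3.33 with WT p53, in ROR1 (chr1:64444468-64444561, 27 bp apart, 6.55 and 7.01) and on chromosome 16 (chr16:32817186-32817272, 34 bp apart, 6.99 and 7.01). Just outside the rule were shared peaks in MBNL1 (chr3:152097207-152097342, 8 bp of overlap, 7.22 and 4.78), in DMTN (chr8:21909877-21909944, 9 bp, 5.64 and 3.88) and on chromosome 10 (chr10:48343094-48343172, 15 bp, 5.97 and 12.7). A WT peak lay within 200 bp of 16 K120R-only peaks and within 1 kb of 31 (3.55%, 2.43 to 5.00%). The median distance to the nearest WT peak was 127196 bp.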

How the data were processed

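H1299 cells were measured by ChIP-seq of p53 in 4 conditions with 1 library each. The authors mapped reads to GRCh37 by BWA-MEM, and their peak lists come from MACS 2.1.1.20160309, run per library with an input control and a q-value cutoff of 0.05. The pileup they deposited is a fragment signal, the fold enrichment they deposited is a ratio to the local background, and the deposited p- and q-values are on the -log10 scale. Nothing was normalized again.

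The members and lists were chosen with earlier results of these data known. Overlap meant at least 1 bp. TSSs were starts of transcripts tagged basic. Windows reached 75 bp to either side of the summit, flanking windows of the same length lay 3000 bp away, and REs were scored against 2 adjoining half-sites. Assembled sequence excludes unknown bases. Groups joined summits up to 100 kb apart. Short-period repeats matched themselves at 60% or more at a shift of at most 60 bp. Peaks named were 10 of the 12 strongest, the 8 strongest within 1 kb of a coding TSS, up to 10 at genes of the p53 and TNFAIP8 lists, the 3 genes with most peaks, the 3 tightest groups of 3 or more, and the 3 peaks on each side of the rule. The window of TNFAIP8, the REs with 1 mismatch, the weaker SEMA3B peak and the chromosome 5 peak without CATG were added after their values were seen, as were chromosome ends, assembly gaps and sequence classes. Alternatives were stricter -log10 q values of 5 and 10, a WT list limited to -log10 q of 5, an overlap of 50%, WT peaks within 1 kb, peaks of untreated cells left out, coding genes, peak centres, wider windows, 2 mismatches, tracts of 30 bp and merged peaks. The overlap and motif searches were tested on simulated data. Scripts ran in Python 3.11.15, with figures by matplotlib 3.10.9, sequence access by pysam 0.24.0, tables by pandas 2.3.3, intervals by scipy 1.17.1 and arrays by numpy 2.4.6.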

Additional observations from a re-analysis of the deposited data

Results flagged for a closer look

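Peaks of untreated cells were not part of the comparison. Of the 873 K120R-only peaks, 3 shared bases with peaks called in WT cells without Tet, and 0 did so for K120R cells without Tet. Of the 1150 shared K120R peaks, 257 (22.3%) and 9 (0.783%) did so. The rule leaves out peaks at WT peaks of Tet-treated cells, which limits the first count. The 3 were at chr12:127650511-127650642, in an exon of a non-coding transcript (fold enrichment 3.74), and at chr21:9825718-9825814 and chr21:9825908-9826456, with summits outside annotated genes and just upstream of the microRNA genes MIR3648 and MIR3687 (1.96 and 1.87). The peaks of untreated WT cells had fold enrichments of 9.06 at the first and 3.62 at the other positions. The positions on chromosome 21 had the lowest fold enrichments and the highest pileups (85 and 88.8) of the class, and all 3 windows held 0 CATG. The source of this signal was not tested.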

How the results depend on the processing

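Of 95 values for 12 results under the alternatives, 69 lay within the counting interval (for the count of peaks, within 1.5 times) and 26 did not. A -log10 q of at least 5 left 514 peaks, and one of at least 10 left 154. In that order, the median fold enrichment was then 7.19 and 9.95, the median length 215 and 374 bp, the share within 1 kb of a TSS 8.37% and 7.79%, and the share with a neighbour within 100 kb 18.1% and 5.84%. The 8-bp word, at 33.2% in all peaks, was then at 37.9% and 43.5%, at least 2 CATG (59.0%) at 64.2% and 71.4%, and alternating tracts that overlap the peak (38.0%) at 42.6% and 53.9%. Tracts were sought over the called peak, so their share can also rise with its length. The highest density on a chromosome was 0.154 per Mb at a -log10 q of 10, since fewer peaks were left. With coding genes only, 57.3% of summits were in a gene body, 6.64% were within 1 kb of a TSS and the median distance was 33590 bp. Neighbours within 100 kb were at 15.8% after merging peaks nearer than 1 kb, and at 19.5% without peaks within 1 Mb of an assembly gap, an alternative chosen after seeing the data. Windows reaching 150 bp raised the word to 39.5% and at least 2 CATG to 76.1%. Such tracts of at least 30 bp were at 23% of peaks, and REs with at most 2 mismatches at 10.3%. Other definitions of overlap moved no result beyond its interval. No paired analysis was possible because each condition had 1 library. Lists hold only called peaks, and the lack of a WT peak does not show the absence of binding.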
